A study of Homo sapiens with 12 samples.

Results

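What inhibitors of the MAP kinase pathway change in melanoma cells that are also exposed to entinostat was measured in Hs695T, an established human melanoma cell line, by comparing 3 arrays of cells given all 3 drugs with 3 arrays of cells given entinostat alone, 6 of the 12 arrays of the study. The members were chosen by treatment label only. All cells grew in RPMI with serum and were harvested 24 hours after treatment, and the 4 groups of 3 arrays each were DMSO vehicle, dabrafenib at 100 nM with trametinib at 10 nM (MAPKi), entinostat at 1 µM, and entinostat with dabrafenib and trametinib at those doses. The vehicle and MAPKi-only arrays enter here to define which genes entinostat raised and whether it raised them when MAPKi was present. Replicates are biological by their titles and technical by the series' design text, so p-values measure only the spread between these arrays. One cell line at a single dose and time was studied.

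Dabrafenib blocks the kinase BRAF and trametinib blocks MEK, the kinase that BRAF activates and that in turn activates ERK. ERK drives transcription through ETS factors and through AP-1, a dimer of FOS and JUN family proteins, and its own targets include the Sprouty and DUSP feedback inhibitors. Entinostat inhibits class I histone deacetylases, enzymes that remove acetyl groups from histones and keep many genes silent, and such inhibitors raise genes of other lineages in tumour cells. A gene that entinostat raises may or may not also require an active transcription factor that depends on ERK.

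Values are linear array intensities, and differences are on the log2 scale with the standard error of the fit. The median intensity over all 29592 rows of the table, with and without a gene name, was 49.7 ± 1.68 (SD, n = 3) on the entinostat arrays and 36.0 ± 3.46 on the entinostat plus MAPKi arrays, against 53.3 ± 3.77 with vehicle and 39.3 ± 1.68 with MAPKi alone. Over the 14599 named genes the median difference made by adding MAPKi was -0.54 on the log2 scale, and over 10 equal bins of genes by brightness the median ran from -0.08 in the dimmest to -0.89 in bin 9. Fewer cells, less RNA per cell and the scaling of the arrays cannot be told apart here, so each difference is given on the deposited scale and after quantile normalization, which gives all arrays the same distribution. Below, rose and fell are used where limma's adjusted p was under 0.05 on both scales with the same sign. Of the melanoma identity markers 8 of 9 were measured, and MLANA, TYR and TYRP1 had group means of 3.33 to 3.91 (log2 intensity) with entinostat or all 3 drugs. The summed intensity of the 8 markers was 2559 to 2811 with entinostat and 1549 to 1579 with all 3 drugs. The markers measured of fibroblasts (3 of 8), keratinocytes (6 of 8), leukocytes (3 of 9) and endothelium (4 of 7) summed to 108 to 134, 184 to 205, 423 to 545 and 762 to 792 with entinostat, and to 92.3 to 104, 144 to 191, 306 to 331 and 164 to 208 with all 3 drugs. No marker was at 0, the endothelial sum came mostly from the receptor KDR, and the part of these signals in the results was not tested.

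Adding MAPKi to entinostat lowered the transcripts of ERK feedback and ETS genes most, and raised a small group led by the melanosome and lysosome glycoprotein GPNMB. On the deposited scale 10602 genes (72.6%) were lower and 94 (0.644%) higher. After quantile normalization 1821 (12.5%) were lower and 1531 (10.5%) higher. On both scales 1821 genes (12.5%) fell and 85 (0.582%) rose. With each array's median subtracted instead, 4427 were lower and 1787 higher. The arrays of the groups did not overlap in 10350 genes (70.9%) on the lower side and 137 (0.938%) on the higher side. The histogram of differences over all genes shows this shift.

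**Figure D1:**
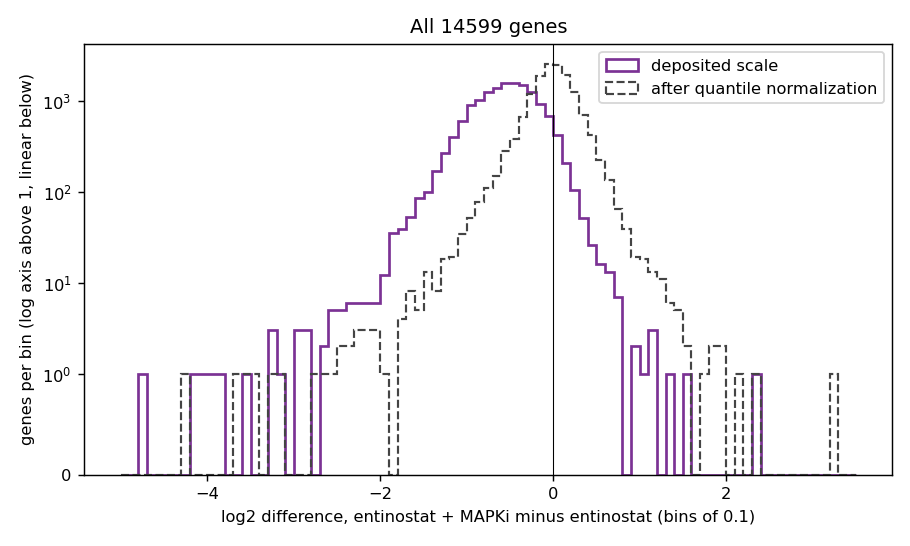
Number of genes (vertical axis, log above 1) by log2 difference between entinostat plus MAPKi and entinostat alone (horizontal axis, bins of 0.1), for all 14599 genes. The deposited values (solid) are centred at -0.54, and after quantile normalization (dashed) the centre lies at 0 while tails remain on both sides.

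SPRY4, a Sprouty protein that restrains receptor signalling to ERK, fell furthest. Its intensity was 766, 1081 and 933 on the entinostat arrays and 32.9, 33.1 and 34.4 on the arrays with all 3 drugs. The difference was -4.78 ± 0.12, and -4.29 ± 0.12 after quantile normalization. Entinostat alone had already lowered SPRY4 from vehicle levels of 2098 to 2459, and MAPKi alone gave 32.2 to 36.1, so the arrays with MAPKi lay together whether or not entinostat was present. ETV5, ETV4 and ETV1, the PEA3 group of ETS transcription factors, fell by 4.08, 3.26 and 2.92 on the log2 scale. DUSP6, the phosphatase that inactivates cytoplasmic ERK, read 313, 372 and 285 with entinostat and 25.2, 27.2 and 15.9 with MAPKi added. Its difference was -3.86 ± 0.17 (quantile -3.42 ± 0.16). NPPC, the C-type natriuretic peptide precursor, read 3167 to 3907 with entinostat and 198 to 212 with all 3 drugs, without overlap. SPRY2, DUSP4, GNE (sialic acid synthesis), UBASH3B, FOSL1, CTLA4 and the entinostat-induced TREM1, ANKRD1 and ANXA1 completed the 15 largest falls.

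The gene lists used here and below were drawn up with earlier results of these data known, so their counts are no independent evidence. Among MAPK pathway output genes 15 of the 16 measured fell, against 12.5% of all genes. Their median was -2.80 (quantile -2.12) against -0.54 (quantile 0.00) over all genes. They included TRIB1 (-2.67 ± 0.11), CCND1, which encodes cyclin D1 and read 797, 911 and 801 with entinostat and 148, 183 and 154 with MAPKi added (-2.38 ± 0.11), and EPHA2 (-2.06 ± 0.13). The exception was the Eph receptor EPHA4, at -0.82 ± 0.12 on the deposited scale and -0.01 ± 0.10 after quantile normalization. Of the 14 immediate early and AP-1 genes, 5 fell, against 12.5% of all genes. FOSL1, an AP-1 subunit stabilised by ERK, read 191, 254 and 253 with entinostat and 31.7, 24.3 and 35.3 with MAPKi added. EGR1 read 714, 763 and 741 against 98.7, 163 and 125, a difference of -2.55 ± 0.17 (quantile -1.68 ± 0.16). MYC (-1.35 ± 0.13), MAFF (-1.35) and IER2 were the others. The core AP-1 genes FOS and JUN did not pass on both scales. FOS was at -0.57 ± 0.12 and, with the sign turned, 0.21 ± 0.10 after quantile normalization, and JUN at -0.62 ± 0.10 and 0.27 ± 0.10.

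Across all 14599 genes the difference made by MAPKi on top of entinostat had a Pearson r of 0.74 with the difference made by MAPKi over vehicle (0.62 after quantile normalization), 2 comparisons that share no arrays. This is a correlation across genes, which are not independent replicates, and both carry the general downward shift.

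Entinostat-induced genes were defined as those higher with entinostat than with vehicle on both scales and by at least 1 on the deposited log2 scale, and 345 genes (2.36%) met this. Just inside the limit lay IQGAP2 (1.004), BCL6 (1.005) and XRRA1 (1.005), and just outside it ERN1 (0.997), MEF2C (0.995) and GALNT10 (0.994). With MAPKi added, 76 of the 345 (22.0%) were lower than with entinostat alone on both scales, 6 (1.74%) were higher and 263 were neither. The background shares over all genes were 12.5% and 0.582%. Because the choice used the same entinostat arrays, an array that read high by chance would favour both the choice and a fall, and nothing is read from the excess. The median difference in the set was -0.71, and -0.01 after quantile normalization.

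The rise with entinostat in cells that also received MAPKi rests on other arrays, those of all 3 drugs against MAPKi alone. In that comparison 313 of the 345 genes (90.7%) were higher on both scales, against 8.66% of all genes. The shares of all genes were 8.68% on the deposited scale and 19.6% after quantile normalization. The median rise was 1.36 without MAPKi (quantile 1.48), where the members were chosen to be high, and 0.97 with it (quantile 1.32). The interaction, which is the rise with MAPKi minus the rise without, passed below 0 for 83 genes (24.1%) and above 0 for 2, LINC00052 and CPM, against 4.26% and 3.02% of all genes. It shares the entinostat and vehicle arrays with the choice of members and so is a description. The plot of both rises shows most genes above 0 on the vertical axis and a small group on it.

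**Figure D2:**
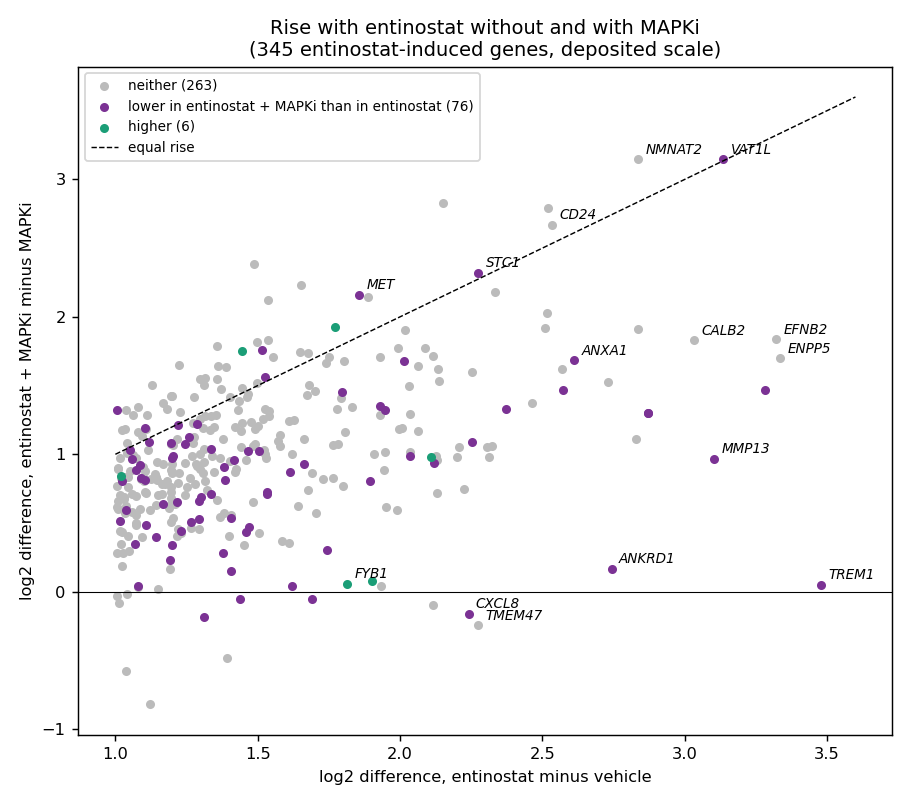
Rise with entinostat in cells given MAPKi (vertical axis, log2) against the rise without MAPKi (horizontal axis, log2) for the 345 entinostat-induced genes, each point a gene, on the deposited scale. Purple genes were lower with all 3 drugs than with entinostat alone on both scales (76), green ones higher (6), and the dashed line marks an equal rise. TREM1, ANKRD1 and CXCL8 lie at the right near 0, while VAT1L and STC1 lie on the line although they are purple.

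Among the 76 genes that fell when MAPKi was added, 62 were still higher than with MAPKi alone on both scales. In 10, no rise over MAPKi alone passed on either scale: TREM1, ANKRD1, CXCL8, IL24, CLDN1, MMP1, TFPI2, STMN2, LAIR2 and MIR153-2. This class was drawn after the values were seen. The other 4 (GDF15, BMAL1, CNTNAP5 and CXCL10) passed over MAPKi alone after quantile normalization only. Of the 76, 23 remained above vehicle on both scales, ANKRD1 and IL24 were below it, and for 51 no call was shared by both scales. After quantile normalization alone 61 of the 76 were above vehicle, and on the deposited scale alone 24 were above and 18 below. Over all genes 3.99% were above vehicle and 25.5% below it with all 3 drugs. All 76 had entinostat arrays entirely above the arrays with all 3 drugs, as 70.9% of all genes did, and nothing is read from this since they were chosen as lower.

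The starts of some of the 10 genes in which no rise over MAPKi alone passed are shown, with matches to the AP-1 site TGANTCA. A rise that did not pass is not shown to be absent. The 300 bases around the gene start (250 before and 50 after) were taken from RefSeq on GRCh38.p14, using the first listed window of a gene, and were found for 6 of the 10 genes and 254 of the 345. Matches to TGANTCA, which reads the same on both strands, are in capitals. EFNB2, which still rose over MAPKi alone but by less than over vehicle, is shown for comparison.
CXCL8 (chr4:73740319-73740618, plus strand): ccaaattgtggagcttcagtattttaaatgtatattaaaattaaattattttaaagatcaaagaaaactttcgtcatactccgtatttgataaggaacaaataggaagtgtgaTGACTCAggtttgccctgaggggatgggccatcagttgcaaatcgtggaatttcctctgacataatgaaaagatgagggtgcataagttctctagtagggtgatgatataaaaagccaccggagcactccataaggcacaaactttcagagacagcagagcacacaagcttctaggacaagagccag
ANKRD1 (chr10:90921038-90921337, minus strand): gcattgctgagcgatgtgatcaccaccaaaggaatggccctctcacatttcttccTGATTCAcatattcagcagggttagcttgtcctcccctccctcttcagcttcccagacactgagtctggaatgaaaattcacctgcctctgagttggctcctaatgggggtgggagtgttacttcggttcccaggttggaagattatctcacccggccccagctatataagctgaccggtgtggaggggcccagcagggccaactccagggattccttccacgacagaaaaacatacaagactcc
TFPI2 (chr7:93890704-93891003, minus strand): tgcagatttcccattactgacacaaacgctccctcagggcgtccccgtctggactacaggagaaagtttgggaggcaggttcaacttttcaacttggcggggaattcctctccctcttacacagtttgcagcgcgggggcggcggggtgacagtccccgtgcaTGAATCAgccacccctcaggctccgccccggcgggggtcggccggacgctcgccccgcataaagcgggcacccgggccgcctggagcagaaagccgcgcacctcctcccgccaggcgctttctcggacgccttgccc
TREM1 (chr6:41286633-41286932, minus strand): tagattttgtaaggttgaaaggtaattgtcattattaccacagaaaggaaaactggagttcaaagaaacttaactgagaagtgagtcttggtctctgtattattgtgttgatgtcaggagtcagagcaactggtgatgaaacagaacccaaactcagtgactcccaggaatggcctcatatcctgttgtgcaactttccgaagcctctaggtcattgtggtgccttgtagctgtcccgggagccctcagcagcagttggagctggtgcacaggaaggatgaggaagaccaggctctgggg
EFNB2 (chr13:106535613-106535912, minus strand): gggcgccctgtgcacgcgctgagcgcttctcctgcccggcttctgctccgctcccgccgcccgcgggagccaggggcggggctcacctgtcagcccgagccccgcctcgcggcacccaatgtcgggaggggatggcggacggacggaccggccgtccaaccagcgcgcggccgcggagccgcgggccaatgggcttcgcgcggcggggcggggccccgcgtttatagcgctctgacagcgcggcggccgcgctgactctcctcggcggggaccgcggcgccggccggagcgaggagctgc
The match lay at -137 from the start in CXCL8, at -195 in ANKRD1 and at -87 in TFPI2. The windows of TREM1, IL24 and CLDN1 held none, which says only that these letters are not in this window. Such a match occurred in 3 of these 6 windows, in 5 of 51 (9.80%) among the induced genes that fell, in 9 of 203 (4.43%) among those that did not, in 5.89% of the windows of all genes tested and in 7.76% of the 27305 windows in the table. The ETS core CCGGAA, on either strand, was in 17.6% of the table and in 23.8% of the windows of all genes tested. It was in 11.0% of the windows of induced genes and 15.7% of those that fell. None of the 6 windows held CCGGAA, TGACGTCA (in 1.98% of the table) or CACGTG (7.43%). The class of 10 was drawn after the values were seen, and nothing is read from these shares. The matches are descriptions and not measured binding, and a part of AP-1 in these genes was not tested.

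TREM1, a receptor that amplifies inflammatory responses in myeloid cells, had the largest rise with entinostat and the largest fall with MAPKi added among the 345. It read 40.6, 35.2 and 36.8 with vehicle, 404, 420 and 429 with entinostat, 27.2, 27.3 and 21.8 with MAPKi, and 25.6, 34.5 and 20.3 with all 3 drugs. Only the 3 entinostat arrays stood apart. The difference on adding MAPKi was -4.00 ± 0.15 (quantile -3.53 ± 0.12), and the rise over MAPKi alone was 0.05 ± 0.15 where it had been 3.48 over vehicle. ANKRD1, a nuclear ankyrin-repeat protein and known target of YAP and AP-1, read 175, 138 and 133 with entinostat, 10.1, 17.6 and 12.3 with all 3 drugs, and at most 12.1 with MAPKi. It fell by 3.51 ± 0.18 and ended below vehicle (17.6 to 26.7). ANKRD1 was dim without entinostat, at percentile 17.9 of all genes with vehicle and 11.8 with all 3 drugs. A lowering by MAPKi alone was read (-0.93 ± 0.18), but at such levels its size is uncertain, and so is that of the interaction.

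The secreted factors followed the same order of groups. CXCL8, the neutrophil chemokine interleukin-8, read 59.6, 46.9 and 55.7 with entinostat and 7.05, 10.4 and 9.04 with all 3 drugs, against 9.20 to 13.8 with vehicle. The difference was -2.62 ± 0.16 (quantile -2.38 ± 0.16) and the interaction -2.40 ± 0.23 (limma adjusted p = 1e-05). IL24, a cytokine of the interleukin-10 family, read 112, 129 and 123 with entinostat and 22.5, 25.7 and 14.3 with all 3 drugs, a fall of 2.58 ± 0.18. MMP1, the interstitial collagenase, read 62.5, 55.3 and 67.9 against 18.0, 16.2 and 18.6. It had been 21.6 to 26.8 with vehicle and 19.7 to 20.2 with MAPKi. TFPI2, an inhibitor of serine proteases in the matrix, read 67.0, 73.6 and 75.5 with entinostat and 19.4, 24.8 and 24.8 with all 3 drugs. In each of these genes the arrays of vehicle, MAPKi and all 3 drugs lay at low intensities and the entinostat arrays above them. CXCL8 was at percentile 8.1 of all genes with vehicle and 6.2 with all 3 drugs. At such levels a lowering by MAPKi alone could hardly be read. Its interaction therefore does not separate a lost rise from a rise on a lowered level.

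CLDN1, a tight junction protein, read 52.2, 44.4 and 35.3 with entinostat and 10.1, 15.1 and 11.6 with all 3 drugs (-1.85 ± 0.17). It was dim without entinostat too, at percentile 12.5 with vehicle and 10.5 with all 3 drugs, so the limit given for CXCL8 holds for it. STMN2, a tubulin-binding protein of neurons, read 50.4, 33.0 and 33.8 against 16.1, 23.0 and 13.2 (-1.17 ± 0.18). LAIR2, a soluble collagen receptor, was dim throughout, at 9.15 to 13.1 with entinostat and 4.89 to 8.77 with all 3 drugs, and its interaction did not pass (-0.75 ± 0.27, limma adjusted p = 0.1).

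**Figure D3:**
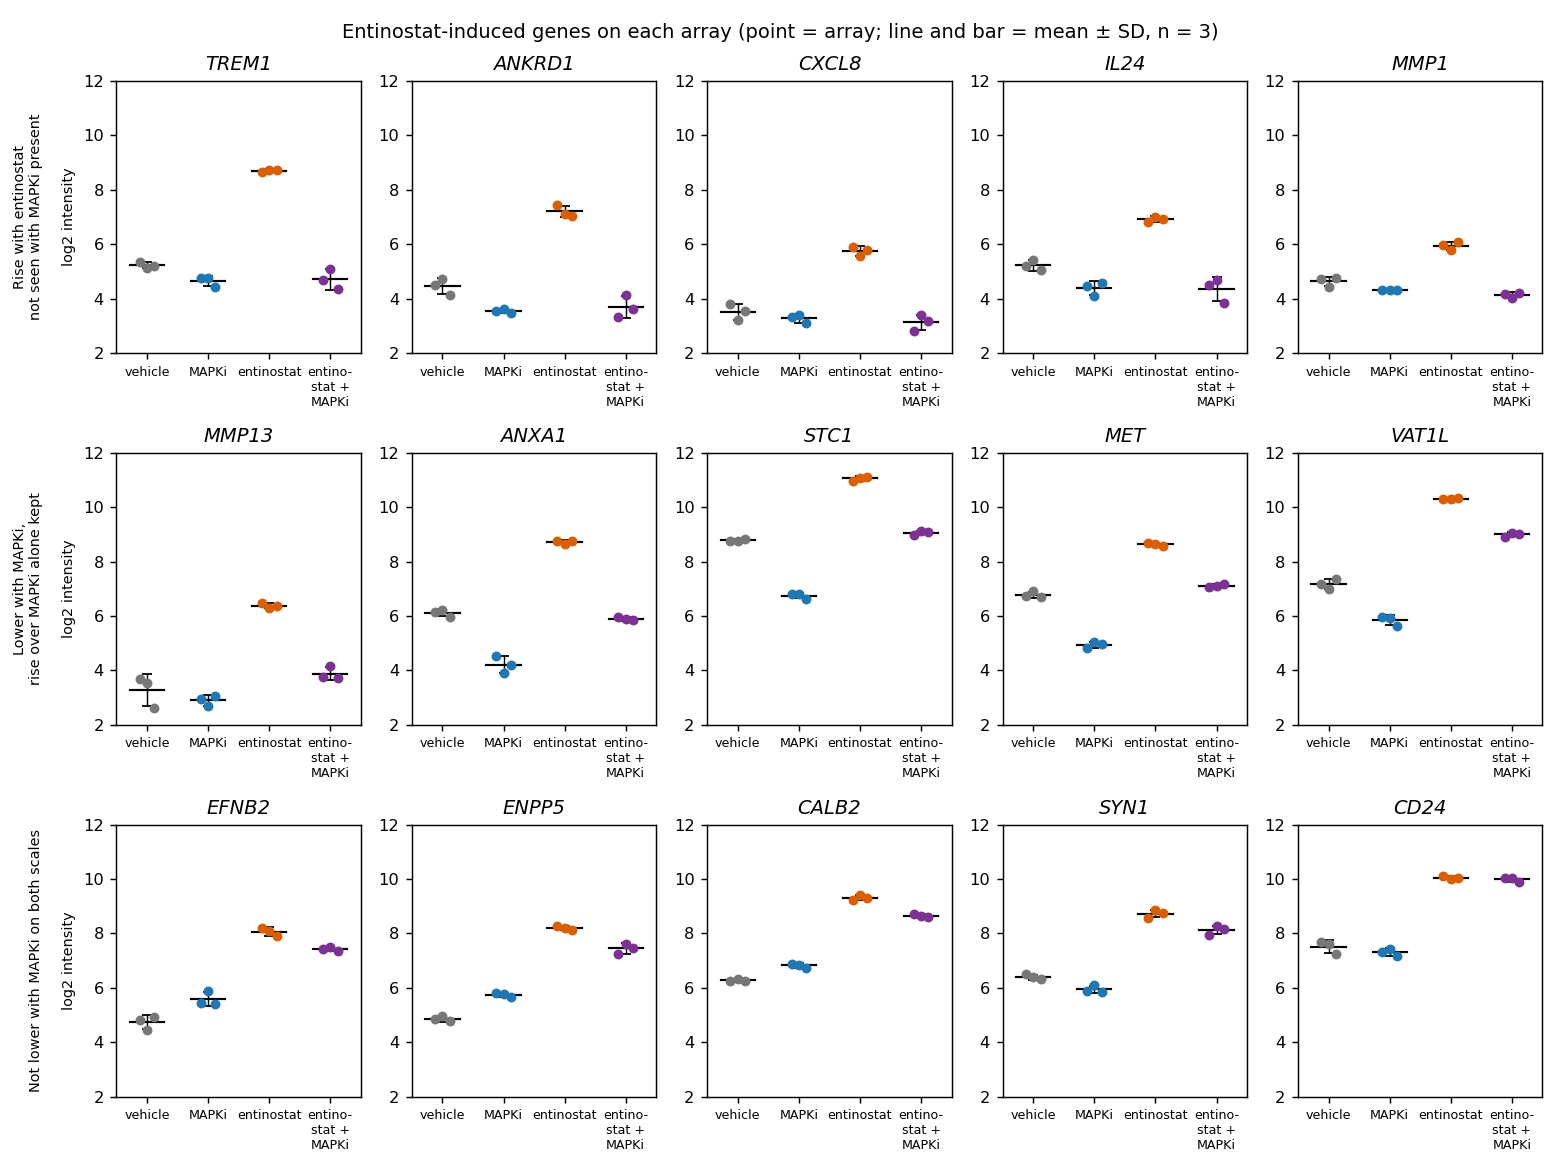
Log2 intensity (vertical axes) of 15 entinostat-induced genes on each of the 12 arrays, by treatment (horizontal axes), with the mean and SD of 3 arrays per group. In the top row the entinostat arrays alone are high, in the middle row all 3 drugs lie below entinostat but above MAPKi alone, and in the bottom row both entinostat-treated groups are high.

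In other genes a rise with entinostat stood on a level that MAPKi lowered. Of the 76 genes that fell, 36 (47.4%) were also lower with MAPKi alone than with vehicle on both scales. That share was 14.6% over all genes and 58.3% among all 1821 genes that fell, so it does not mark out the induced genes. In 48 of the 76 the interaction did not pass on both scales. STC1, the secreted hormone stanniocalcin, read 433 to 452 with vehicle and 99.5 to 112 with MAPKi, and 2001, 2170 and 2236 with entinostat and 509, 560 and 546 with all 3 drugs. Entinostat raised it by 2.27 without MAPKi and by 2.32 ± 0.10 with it, while MAPKi lowered it on the entinostat background by 1.99 ± 0.10 on the log2 scale. The interaction was 0.05 ± 0.14. MET, the receptor of hepatocyte growth factor, read 415, 399 and 383 with entinostat and 133, 137 and 144 with all 3 drugs, and its rises were 1.86 without and 2.16 ± 0.10 with MAPKi. Its interaction was 0.31 ± 0.14 on the deposited scale, which did not pass, and 0.60 ± 0.15 after quantile normalization, which passed above 0 (limma adjusted p = 0.022).

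VAT1L read 1271, 1274 and 1285 with entinostat and 485, 534 and 522 with all 3 drugs. Those groups do not overlap, and both lay above vehicle (127 to 165) and MAPKi (50.2 to 62.9). Its rises were 3.14 and 3.15 ± 0.12. ICAM1, an adhesion molecule for leukocytes, read 998, 1042 and 1010 with entinostat and 291, 369 and 312 with all 3 drugs (-1.66 ± 0.12), and its interaction was -0.17 ± 0.17. CD83, a surface protein of activated dendritic cells, fell by 1.85 ± 0.13 and had an interaction of -0.14 ± 0.19. An interaction that did not pass does not show equal rises.

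Other genes had a smaller rise with MAPKi than without. MMP13, collagenase 3, read 89.7, 79.3 and 82.4 with entinostat, 13.7, 17.7 and 13.1 with all 3 drugs, and 6.45 to 8.45 with MAPKi. Its rise was 3.10 without MAPKi and 0.97 ± 0.21 with it, an interaction of -2.13 ± 0.30. The low MAPKi readings put the limit given for CXCL8 on this interaction as well. ANXA1, a phospholipid-binding protein that limits inflammation, read 437, 404 and 435 against 63.0, 58.8 and 57.2, and its interaction of -0.93 ± 0.19 passed on the deposited scale but not after quantile normalization (-0.66, limma adjusted p = 0.065). EBF2, a transcription factor of mesenchymal and neural cells, fell by 1.88 ± 0.11 with an interaction of -1.04 ± 0.16. GDF15, a stress-induced hormone, fell by 2.35 ± 0.12 with an interaction of -1.26 ± 0.17. CD274, which encodes the immune checkpoint ligand PD-L1 and was picked after its values were seen, read 101, 106 and 108 with entinostat and 32.3, 37.9 and 27.3 with all 3 drugs, a fall of 1.71 ± 0.14. Its vehicle arrays read 24.8 to 30.7. DUSP5, the nuclear ERK phosphatase, fell by 2.06 ± 0.15, and its interaction of -0.64 ± 0.21 did not pass on the deposited scale (limma adjusted p = 0.081), while -0.56 ± 0.16 after quantile normalization did (0.038).

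The inflammatory secretion and collagenase lists hold many of these genes, and were drawn up with earlier results known, so their counts are no independent evidence. Of 14 measured inflammatory secretion genes 8 fell, at a median of -1.08 (quantile -0.61), and none rose. The background for both lists is that 12.5% of all genes fell and 0.582% rose. CCL20, a chemokine for lymphocytes and dendritic cells, fell by 2.13 ± 0.14 and PTGS2, cyclooxygenase 2, by 1.04 ± 0.12. CCL2 was at -0.53 and 0.32 after quantile normalization and did not pass on both scales. Of 8 collagenase and plasminogen genes 3 fell, MMP1, MMP13 and the inhibitor TIMP3 (-0.77). Of the 3 measured leukocyte markers LYZ fell, at -0.85 ± 0.12. CD14 was at -0.18 ± 0.12 and CD68 at -0.58 ± 0.12, and both had the sign turned after quantile normalization, at 0.12 and 0.31. The part of these signals in the inflammatory and collagenase genes was not tested.

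Most entinostat-induced genes, 313 of the 345, kept a rise over MAPKi alone. In the 263 that neither fell nor rose on both scales, 247 were higher with all 3 drugs than with MAPKi and 239 were above vehicle. The shares over all genes were 8.66% and 3.99%. The same vehicle arrays chose the 345, and the 263 were sorted on the arrays of all 3 drugs. Nothing is read from the excess in the 263. EFNB2, the ligand ephrin-B2, read 297, 269 and 239 with entinostat and 173, 181 and 162 with all 3 drugs, against 22.1 to 30.4 with vehicle and 42.9 to 58.7 with MAPKi. Its difference was -0.64 ± 0.14 on the deposited scale, near the median of all genes, and 0.25 ± 0.14 with the sign turned after quantile normalization. ENPP5, a membrane phosphodiesterase-like protein, read 306, 297 and 280 against 153, 198 and 176. CALB2, the calcium buffer calretinin, read 597, 687 and 629 against 419, 399 and 392. After quantile normalization ENPP5 and CALB2 had the sign turned, at 0.15 and 0.18, and did not pass on both scales. EFNB2, ENPP5 and CALB2 were also raised by MAPKi alone, by 0.84, 0.89 and 0.55. Their rises with entinostat were smaller with MAPKi (1.8, 1.7 and 1.8) than without (3.3, 3.3 and 3.0). The interaction of each passed below 0 on both scales.

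CD24, a surface glycoprotein picked after its values were seen, was almost level on the deposited scale, at 1100, 1036 and 1047 with entinostat and 1042, 1061 and 948 with all 3 drugs, and the groups overlap. Its difference was -0.06 ± 0.12, or with the sign turned 0.61 ± 0.10 after quantile normalization, and its rise was 2.54 without and 2.67 ± 0.12 with MAPKi. NMNAT2, which makes NAD in axons, read 884, 970 and 865 against 372, 527 and 412, a difference of -1.07 ± 0.14 (quantile -0.27 ± 0.11). SYN1, the synaptic vesicle protein synapsin, read 384, 464 and 430 against 248, 306 and 285, and vehicle 79.2 to 89.9, with the sign turned after quantile normalization (0.28). CLGN, a chaperone of the testis, was at -0.54 ± 0.15, and 0.35 ± 0.14 with the sign turned after quantile normalization. The genes nearest to 0 after quantile normalization were ZNF10, ADGRG2, NABP1 and RORB, at -0.79, -0.63, -0.89 and -0.60 on the deposited scale.

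Of 21 measured members of the neuronal list 13 were higher with entinostat than with vehicle, against 9.95% of all genes. With all 3 drugs 14 were higher than with MAPKi alone, against 8.66%. The neuronal list too was drawn up with earlier results known, and nothing is read from the excess. Of the 21, 9 belong to the induced set. With MAPKi added to entinostat, 3 fell and none rose, where 12.5% of all genes fell and 0.582% rose. The median was -0.60 (quantile 0.02), close to that of all genes. Those that fell were SCG2 (-1.62 ± 0.19) and VGF (-1.23 ± 0.13), which encode secretory granule proteins and were not among the induced genes, and STMN2. SYT4, a synaptotagmin, was at 0.45 ± 0.22, which did not pass, and at 1.17 ± 0.21 after quantile normalization, which did. Of 18 ephrins and Eph receptors, EFNA5 (-2.30 ± 0.12) and EPHA2 fell, where 12.5% of all genes fell. The other 16 did not pass on both scales.

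The 6 induced genes that rose further with MAPKi were FYB1, STK32A, IFIT1, CXCL14, KCTD19 and LRP2. FYB1, an adaptor protein of T cells and platelets, read 40.9, 34.96 and 39.5 with entinostat and 113, 94.3 and 91.0 with all 3 drugs (1.37 ± 0.15, quantile 2.12 ± 0.16). MAPKi alone gave 90.2 to 105, so the arrays with MAPKi overlapped whether or not entinostat was present. STK32A, a serine kinase, read 103, 114 and 110 against 139, 160 and 142, with 137 to 141 under MAPKi alone. CXCL14, a chemokine of epithelia, read 166, 180 and 156 against 179, 259 and 228, and MAPKi gave 97.4 to 130. LRP2, the endocytic receptor megalin, read 98.0, 96.1 and 92.4 against 111, 119 and 106, while MAPKi alone (27.4 to 32.1) was at the level of vehicle (26.7 to 28.8). KCTD19 had that same order of groups, at 119 to 127 with entinostat and 145 to 153 with all 3 drugs. Except in FYB1 these rises are small on the deposited scale, where 4 of the 6 depended on single arrays. LRP2 (0.18 to 0.27) no longer passed whichever of the 6 arrays was left out, and KCTD19 (0.23 to 0.28) passed only without array 2 of all 3 drugs. IFIT1 no longer passed without array 2 (0.28) or 3 (0.38) of all 3 drugs or array 1 (0.36) or 3 (0.34) of entinostat, and CXCL14 without array 2 of all 3 drugs (0.28) or array 3 of entinostat (0.35).

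Several induced genes had an interaction below 0 without falling on both scales, and MAPKi alone raised them too. MAPKi alone raised 52 of the 345 genes on both scales (15.1%, against 2.54% of all genes) and lowered 55 (15.9%, against 14.6%). The same vehicle arrays chose the 345. A vehicle array that read low by chance would favour both the choice and a rise with MAPKi, and nothing is read from the excess. TMEM47, a junction protein, read 389, 425 and 424 with entinostat, 387, 440 and 414 with MAPKi and 340, 392 and 320 with all 3 drugs, against 73.2 to 92.8 with vehicle. Its interaction was -2.52 ± 0.17. ALCAM, an adhesion molecule of melanoma cells, read 217 to 260 with entinostat, 268 to 321 with MAPKi and 261 to 293 with all 3 drugs. SLPI, an inhibitor of leukocyte proteases, read 256 to 310, 123 to 137 and 264 to 303 in these groups, and 31.2 to 59.1 with vehicle. USP17L15, USP17L12 and USP17L9P belong to a repeat family of deubiquitinases, and the last 2 have identical values, so their signals cannot be assigned to single genes.

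Outside the induced set, the largest rise was that of GPNMB. It read 57.1, 42.1 and 60.6 with entinostat and 244, 303 and 285 with all 3 drugs, a difference of 2.39 ± 0.14 (quantile 3.23 ± 0.14). MAPKi alone gave 318 to 367 and vehicle 29.7 to 37.4. LCTL, a klotho-family protein, read 46.4, 49.9 and 48.5 against 141, 126 and 143, below the 496 to 536 of MAPKi alone. IGFBP5, a binding protein of insulin-like growth factors, read 313, 339 and 308 against 678, 725 and 755. BEST1, MGP, ACSL1 and PRELP rose by 1.15 ± 0.15, 1.10 ± 0.10, 0.96 ± 0.11 and 0.94 ± 0.10. In GPNMB, BEST1 and MGP the difference between all 3 drugs and MAPKi alone did not pass on both scales. Of the 85 genes that rose, 48 were also higher with MAPKi alone than with vehicle on both scales (56.5%), against 2.54% of all genes.

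Many DNA replication genes fell, from levels that entinostat had already lowered in most. Of 22 measured, 16 fell, against 12.5% of all genes, at a median of -1.32 (quantile -0.67), and 17 had been lower with entinostat than with vehicle, against 21.3% of all genes. CDC6, which loads the replicative helicase, read 232, 219 and 210 with entinostat and 56.7, 47.8 and 50.2 with all 3 drugs. MCM5, a helicase subunit, read 192, 228 and 265 against 75.7, 76.2 and 66.9, and vehicle 999 to 1174. MCM10 and E2F1, a transcription factor of S phase, fell by 2.24 ± 0.11 and 1.86 ± 0.15. MCM2 was at -1.04 ± 0.12 and -0.29 ± 0.11 and did not pass after quantile normalization. Of 21 measured mitotic genes only the spindle checkpoint gene MAD2L1 fell (-1.19 ± 0.12) and none rose, at a median of -0.66 (quantile 0.06). PLK1, a mitotic kinase, was at -0.28 ± 0.13 and, with the sign turned, 0.47 ± 0.09 after quantile normalization.

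The counts of the following lists stand against the 12.5% of all genes that fell and the 0.582% that rose. Ribosome biogenesis genes fell in 9 of 10 cases, at a median of -1.23 (quantile -0.53). NOLC1, a nucleolar scaffold, read 495, 470 and 466 with entinostat and 179, 178 and 170 with all 3 drugs. NIP7 fell by 1.53 ± 0.11. Among homologous recombination genes 11 of 19 fell, led by the exonuclease EXO1 (-2.12 ± 0.11), XRCC2 (-1.84) and BRIP1 (-1.69). Among end-joining genes RIF1 (-1.47 ± 0.11) and XRCC4 (-1.16 ± 0.12) fell of 6 measured, and among base excision, mismatch and direct repair genes 5 of 17, with the uracil glycosylase UNG at -1.53 ± 0.11. Of 2 measured Fanconi genes UBE2T fell (-1.38). In sterol synthesis 6 of 11 fell, with the epoxidase SQLE at -1.62 ± 0.10, and in glycolysis 3 of 8, with LDHA at -1.42 ± 0.11. Of the 9 housekeeping genes only PGK1 passed on both scales, and their median was -0.77 (quantile 0.03). The plot of gene lists sets these medians side by side.

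**Figure D4:**
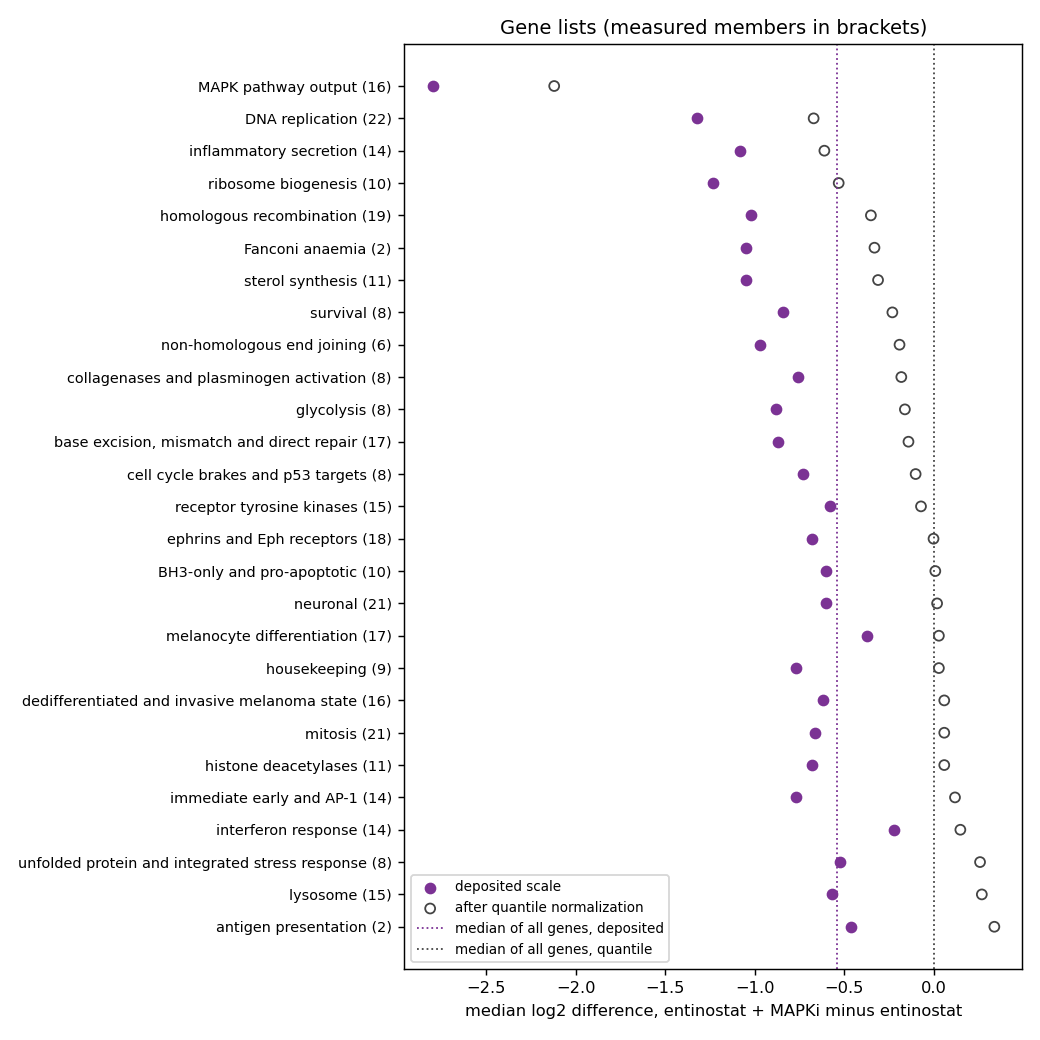
Median log2 difference between entinostat plus MAPKi and entinostat alone (horizontal axis) of each gene list (vertical axis, number of measured genes in brackets), on the deposited scale (filled) and after quantile normalization (open), with dotted lines at the medians of all genes. MAPK pathway output lies furthest left on both scales at -2.80 and -2.12, and the lists from ephrins downward lie at or to the right of 0 after quantile normalization.

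Some genes of cell death passed on both scales. Their lists are too short to set the counts apart from the 12.5% of all genes that fell and the 0.582% that rose. PMAIP1, the p53 target NOXA that neutralises MCL1, was raised by entinostat and read 402, 412 and 395, against 119, 113 and 125 with all 3 drugs (-1.76 ± 0.10). Its vehicle arrays read 160 to 175. BMF, a BH3-only protein tied to the cytoskeleton, rose from 92.9, 107 and 106 to 153, 186 and 164, and MAPKi alone gave 314 to 331. BCL2L11, which encodes BIM, was at 0.02 ± 0.11, and 0.89 ± 0.09 after quantile normalization, and either treatment alone had raised it. Among 10 pro-apoptotic genes PMAIP1 and BMF were the only ones to pass on both scales. Of 8 survival genes MCL1 (-1.46 ± 0.11), BCL2 (-1.40 ± 0.14) and XIAP (-0.72 ± 0.10) fell. MCL1 read 945, 908 and 895 with entinostat and 349, 326 and 323 with all 3 drugs. Of 8 cell cycle brakes and p53 targets GDF15 and RBL2 (-1.24 ± 0.10) fell.

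Of 17 melanocyte differentiation genes 5 fell and GPNMB rose, where 12.5% of all genes fell and 0.582% rose, and with lists this short a count of a few genes is not set apart from those shares. PMEL, a melanosome protein that entinostat raised, read 133, 138 and 154 with entinostat and 48.5, 70.1 and 52.9 with all 3 drugs, near the 59.4 to 78.5 of vehicle. PAX3 and EDNRB, a transcription factor and a receptor of the lineage, fell by 1.55 ± 0.12 and 1.09 ± 0.12, and S100B and CDK2 were the others. MITF was at -0.67 ± 0.13 and -0.20 ± 0.09 and SOX10 at -0.07 ± 0.12 and, with the sign turned, 0.76 ± 0.08. Of 16 genes of the dedifferentiated state 5 fell, among them FOSL1, EGFR and NGFR (-1.29), and CCN2 (0.37 ± 0.10) and SOX2 (0.50 ± 0.12) rose. Among 15 receptor tyrosine kinases KDR (-2.56 ± 0.12), EGFR (-1.59 ± 0.11), MET and FGFR1 (-1.40) fell and FGFR2 (0.46 ± 0.10) rose. KDR read 666, 659 and 697 with entinostat and 115, 122 and 106 with all 3 drugs.

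The counts of the last lists also stand against the 12.5% of all genes that fell and the 0.582% that rose. With lists this short they are not set apart from those shares. Of 14 interferon response genes the RNA sensor RIGI (-1.51 ± 0.10), BST2 (-1.22 ± 0.12) and ISG20 (-1.02) fell and IFIT1 (0.40 ± 0.16) rose. IFIT1 read 41.5, 49.6 and 40.4 with entinostat and 47.3, 67.9 and 59.0 with all 3 drugs, and the groups overlap. Of the 11 histone deacetylase genes only HDAC4 fell (-0.97 ± 0.15), and in the lysosome list CTSB fell (-0.93 ± 0.11) and GPNMB rose. Of the 2 measured antigen presentation genes, B2M did not pass with the same sign on both scales, and TAPBP passed as lower on the deposited scale (-0.26 ± 0.11) and as higher after quantile normalization (0.62 ± 0.08). Of 8 stress response genes TRIB3 fell (-1.02).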

How the data were processed

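Gene expression was measured on Affymetrix arrays of biotin-labelled total RNA, with an ERCC spike-in mix added before extraction. The authors' deposited intensity values are linear and, per the submitters' processing notes, came from RMA in the Transcriptome Analysis Console; the sources used state no version and not whether the spike-in set the scale. Of 29592 rows, 14783 carried 1 gene symbol, 0 several and 14809 none. Symbols came from the platform annotation, updated through Entrez IDs. The brightest row of each gene was kept, giving 14599 genes. Log2 intensities of all 12 arrays were fitted by group with limma 3.58.1 in R 4.3.3 (empirical Bayes, 8 residual degrees of freedom), on the deposited scale (7.68 prior degrees of freedom) and after quantile normalization (4.11), with Benjamini-Hochberg adjustment over all genes at 0.05. Data were simulated for the comparison of all 3 drugs with entinostat over 14599 genes, with 50 genes changed at each size. Log2 changes of 0.5, 1, 2 and 4 were called in 50%, 94%, 98% and 100% of cases. Of the unchanged genes 11 were called. The simulation used a single scale and held no general shift, so these rates do not describe the calls required on both scales. The number of arrays limits the precision.

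Genes were named by rule: the 15 largest falls and rises without overlap, and among induced genes the 12 largest rises, 12 largest falls, 8 largest further rises and 8 smallest quantile differences, and per list up to 4 that passed and 2 that did not. Genes outside the rule were chosen after their values were seen. Members and lists were chosen with earlier results of these data known. Alternatives were another scaling, dim genes left out, another variance prior, the mean of a gene's rows, only the arrays compared, a replicate block, other limits of rise and each array left out.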

Additional observations from a re-analysis of the deposited data

Results flagged for a closer look

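For 32 entinostat-induced genes described above, the effect of MAPKi with entinostat differed from its effect without entinostat on both scales, by the interaction term of the limma fit. These values use the entinostat and vehicle arrays that chose the genes, and all are on the deposited log2 scale. In some of these genes no rise over MAPKi alone passed on either scale. Their interactions were -3.428 for TREM1, -2.575 for ANKRD1, -2.399 for CXCL8, -1.742 for IL24, -1.58 for TFPI2, -1.498 for MMP1, -1.492 for CLDN1 and -1.034 for STMN2. Other genes that fell with MAPKi added were MMP13 at -2.135, CNTNAP5 at -1.439, GDF15 at -1.258, CD274 at -1.087, EBF2 at -1.043, BMAL1 at -0.964, PMAIP1 at -0.761 and PMEL at -0.722.

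Genes that did not fall on both scales had the remaining values. TMEM47 was at -2.516, ALCAM at -2.216, STK32A at -1.82, USP17L15 at -1.817, FYB1 at -1.757 and SLPI at -1.716. ENPP5 was at -1.637, USP17L9P and USP17L12 each at -1.57, EFNB2 at -1.482, CALB2 at -1.205, CXCL14 at -1.129, BCL6 at -0.723 and ZNF10 at -0.697. CPM at 0.582 and LINC00052 at 0.674 were the 2 induced genes whose interaction lay above 0.

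The comparisons above leave out 14809 rows of the table without a gene symbol. Of these, 997 were lower and 132 higher with all 3 drugs than with entinostat alone on both scales.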

How the results depend on the processing

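The counts over all genes moved most with the scaling, and those of the induced genes with the scaling and with the limit on the rise. After quantile normalization 1821 genes were lower and 1531 higher, and of the 506 genes then called entinostat-induced 118 were lower, 474 were higher than with MAPKi alone and 141 had an interaction below 0. With each array's median subtracted, 4427 genes were lower and 1787 higher, and of 415 induced genes 170 were lower and 147 had an interaction below 0. Without the dimmest 40% of genes, 50 genes were higher, with fewer genes tested. A limit of 0.5 on the rise gave 974 induced genes, of which 201 were lower, 773 were not, 691 were higher than with MAPKi alone and 181 had an interaction below 0. A limit of 2 gave 55 genes, with 16, 39, 49 and 28 in the same order. A trended and robust variance, the mean of a gene's rows and a fit of only the arrays compared moved none of these counts by over 1.5 times. Leaving out each array in turn gave 80 to 100 genes higher and 9451 to 11311 lower, and among the induced genes 61 to 82 lower, 237 to 294 not lower, 282 to 329 higher than with MAPKi alone and 67 to 92 with an interaction below 0.

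Among named genes that passed on at least 1 of the scales compared, the sign of the difference turned after quantile normalization in ADGRG2 (0.0), B2M (0.07), BCL6 (0.53), CALB2 (0.18), CCL2 (0.32), CD68 (0.31), CD24 (0.61), CLGN (0.35), CPM (0.55), EFNB2 (0.25), ENPP5 (0.15), FOS (0.21), JUN (0.27), PLK1 (0.47), SOX10 (0.76), SYN1 (0.28), TAPBP (0.62), TMEM47 (0.62) and XRRA1 (0.08). With the array median subtracted it turned in BCL6 (0.26), CD24 (0.41), CPM (0.15), MLANA (0.32), SOX10 (0.4), TAPBP (0.21) and TYR (0.46). CD14 (0.12), MLANA (0.07), TYR (0.17) and TYRP1 (0.03) turned after quantile normalization without passing on either scale. The cause was not tested. Leaving out single arrays ended the deposited-scale calls of LRP2, KCTD19, IFIT1 and CXCL14, as given above, and of CPM (-0.28 and -0.29) and TAPBP (-0.18 to -0.25).

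Whether the replicate numbers pair the arrays was not settled. Across all groups, arrays with the same number deviated from their group means with correlations as low as -0.106. Between entinostat and all 3 drugs the correlations were 0.085 to 0.121 for the same number and -0.074 to -0.031 for unlike numbers. For 7 of 12 arrays the highest correlation was with an array of the same number. With the number as a replicate block, 98 genes were higher and 10713 lower, and 73 of the induced genes were lower, 272 not, 314 higher than with MAPKi alone and 87 had an interaction below 0. LRP2 and TAPBP lost their calls under the block.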
